A study of Mus musculus with 36 samples.

Results

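The Hox probe sets described here are the 40 probe sets, of 12488 on the array, whose annotation gives a single gene symbol made of Hoxa, Hoxb, Hoxc or Hoxd and a number. They stand for 32 symbols. Of these, 31 are coding genes with 38 probe sets, out of 39 coding Hox genes known to RefSeq in the mouse, and the last is Hoxa11os, a noncoding antisense transcript of the A cluster with 2 probe sets. A further 3 Hox probe sets carry several symbols and were left out.

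Total RNA from diaphragm, the main breathing muscle, was hybridised to 1-colour Affymetrix arrays, 36 in all. The mice were mdx, a strain with a point mutation in the dystrophin gene Dmd that lacks full-length dystrophin, or control, which the title of the series calls wild type. Each genotype was sampled at 7, 14, 23, 28, 56 and 112 days of age, with 3 arrays for each of the 12 groups. The labels give no strain background, sex, pooling of animals or date, and do not say that each array is a separate animal. A p-value here therefore describes variation among arrays, some of which may be technical. Values are the signal of a probe set on a linear scale, and differences are in log2(signal + 32) with the standard error (SE).

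Hox genes encode homeodomain transcription factors that are laid out in 4 chromosomal clusters. Within a cluster, genes at one end act towards the head of the embryo and genes at the other end towards the tail, and many adult cells, fibroblasts and muscle cells among them, keep the Hox pattern of the place they came from. The members of a cluster are numbered by paralog group, low numbers for anterior and high numbers for posterior genes. The muscle of the diaphragm descends from cells of the neck region, and in the mouse the Hox5 genes are needed in the phrenic motor neurons that innervate it. Hoxc9 is known for setting thoracic identity in motor neurons, and Hoxa10 and Hoxa11 for patterning of the reproductive tract and the limb.

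The promoters of the A-cluster genes whose 7-day signals carry the findings are shown for reference, as the 250 bases before each start in RefSeq (GRCm38.p6), all on the minus strand of chromosome 6. Capitals mark the homeodomain core TAAT or its reverse complement ATTA. Hoxa10 has 2 annotated starts and both windows are given. Hoxc9 is named only.
Hoxa5 (chr6:52204588-52204837): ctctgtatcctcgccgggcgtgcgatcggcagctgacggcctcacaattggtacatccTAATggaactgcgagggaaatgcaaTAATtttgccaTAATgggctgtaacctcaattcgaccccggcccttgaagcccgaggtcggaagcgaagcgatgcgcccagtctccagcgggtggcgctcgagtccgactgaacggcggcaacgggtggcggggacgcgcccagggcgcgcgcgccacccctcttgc
Hoxa10, start 1 (chr6:52234940-52235189): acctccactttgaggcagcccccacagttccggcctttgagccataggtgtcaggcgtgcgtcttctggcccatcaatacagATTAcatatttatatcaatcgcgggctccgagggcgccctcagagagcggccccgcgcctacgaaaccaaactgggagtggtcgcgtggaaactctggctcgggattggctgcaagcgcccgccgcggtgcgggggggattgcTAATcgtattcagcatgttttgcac
Hoxa10, start 2 (chr6:52240855-52241104): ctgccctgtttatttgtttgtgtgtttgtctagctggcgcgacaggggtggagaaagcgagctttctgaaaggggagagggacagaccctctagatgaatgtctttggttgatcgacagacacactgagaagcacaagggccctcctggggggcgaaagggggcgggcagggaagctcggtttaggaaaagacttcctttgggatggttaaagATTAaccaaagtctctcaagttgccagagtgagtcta
Hoxa11 (chr6:52245811-52246060): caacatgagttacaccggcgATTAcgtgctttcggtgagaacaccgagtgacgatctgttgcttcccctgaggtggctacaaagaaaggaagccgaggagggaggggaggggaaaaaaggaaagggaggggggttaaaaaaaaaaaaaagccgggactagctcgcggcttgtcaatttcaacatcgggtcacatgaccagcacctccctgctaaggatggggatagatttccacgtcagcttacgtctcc
The Hoxa5 window held the core at 3 places, the Hoxa10 windows at 2 and 1 places, and the Hoxa11 window at 1 place. On either strand, 54.9% of the 32851 promoter windows of the same length in RefSeq hold this core. The core bound by Meis and Pknox factors, TGACAG, searched on both strands, is in 15.9% of all windows and in none of these 4. TGATTNAT, a joint site of Pbx and Hox factors searched in the same way, is in 2.82% of all windows and in none of these 4. The TAAT core was counted wherever it fell, inside a longer motif or not.

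A signal of 374.5, percentile 40 of all values in the table, served as the mark for a value that is not low, although it is no detection limit. Of the 40 Hox probe sets, 27 probe sets of 24 genes lay above the mark on at least 3 arrays and entered the tests. Of the other 13 probe sets, 11 never passed the mark. No probe set entered through the arrays of a single group.

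The 6 probe sets above the mark on all 36 arrays were those of Hoxa4 (97747_r_at), Hoxa5, Hoxb6, Hoxb8 (96418_r_at), Hoxc5 and Hoxd8 (160460_at), all of paralog groups 4 to 8. Another 4 probe sets passed on 30 to 32 arrays, for Hoxa2, Hoxa6 (102580_r_at), Hoxb7 and Hoxd8 (93221_at), and Hoxc4 and Hoxc6 passed on 27 and 28 arrays. Between 15 and 20 arrays passed for Hoxb1, Hoxc8, Hoxd10 and a probe set of Hoxa11os (161670_f_at). The remaining 11 tested probe sets passed on 3 to 11 arrays. They were those of Hoxa3, Hoxa4 (162402_r_at and 97745_at), Hoxa7, Hoxa9, Hoxa13, Hoxb3, Hoxb4, Hoxb5, Hoxb13 and Hoxc9.

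Just inside the mark, Hoxa9 and Hoxb4 passed on 3 arrays each. Just outside it, Hoxd9 passed on 2 arrays and Hoxa11 on 1. The 11 probe sets above the mark on no array were those of Hoxa4 (97746_f_at), Hoxa6 (102579_f_at), Hoxa10, Hoxa11os (93873_s_at), Hoxb8 (96417_s_at), Hoxb9, Hoxd1 (both probe sets), Hoxd11, Hoxd12 and Hoxd13. By paralog group, 17 of 20 coding probe sets of groups 4 to 8 were tested, 4 of 6 of groups 1 to 3, and 5 of 12 of groups 9 to 13. These counts describe probe sets, whose brightness also depends on their own probes, and the difference between groups was not tested.

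Probe sets of the same gene did not always tell the same story. Hoxa4 has 4 probe sets, which passed the mark on 0, 4, 11 and 36 arrays. Hoxa6 has a probe set that passed on 0 arrays and another on 32, and Hoxb8 likewise 0 and 36. The probe sets that passed most often for these 3 genes end in _r_at, the array maker's code for relaxed rules of probe choice. Hoxc9 is measured by a single _f_at probe set, whose probes may match similar genes of a family, so its signal cannot be told apart from that of a close relative.

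**Figure D1:**
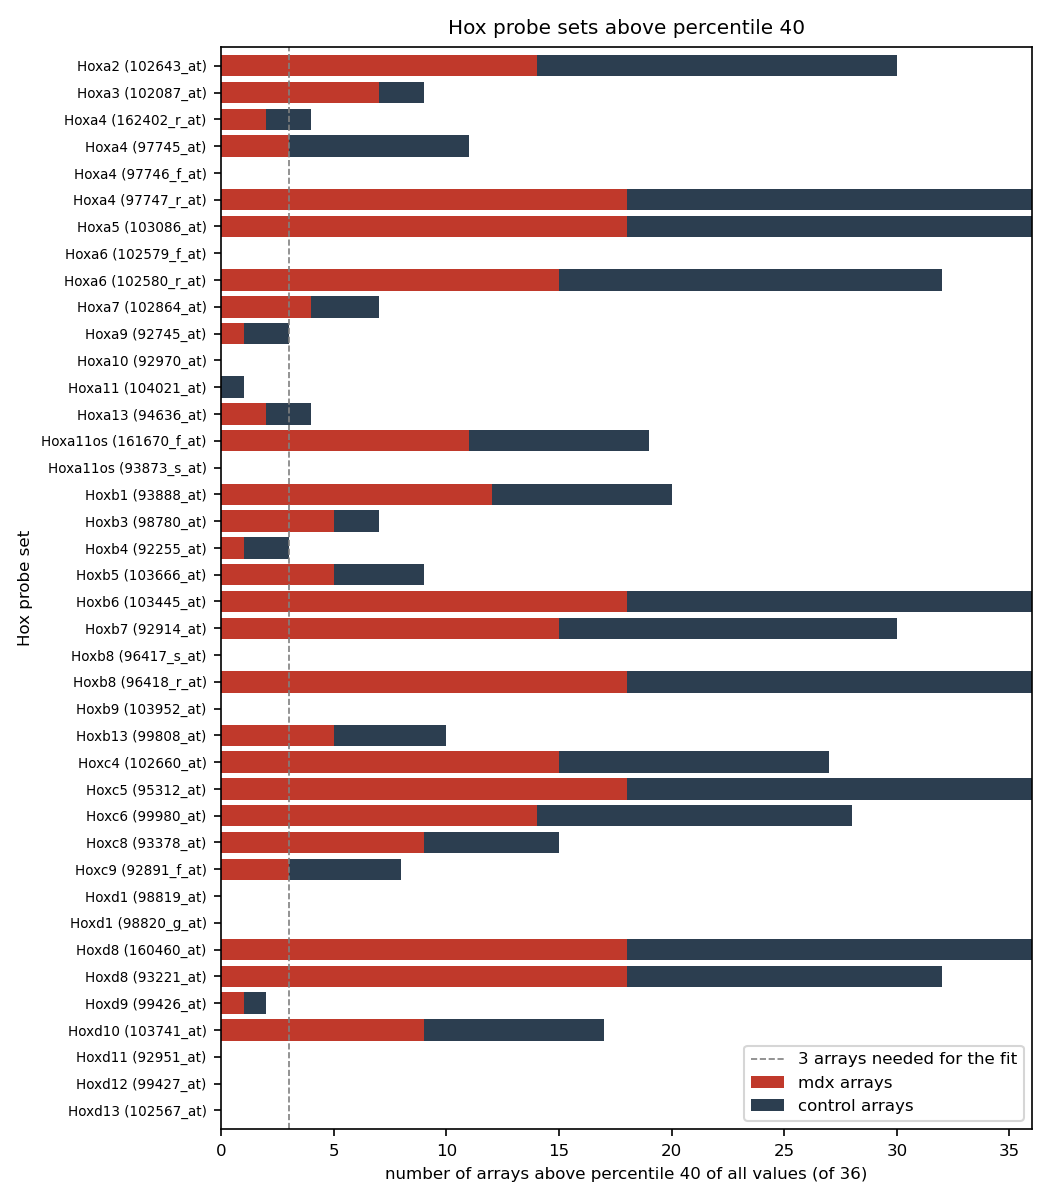
Number of arrays, of 36, on which each of the 40 Hox probe sets lay above percentile 40 of all values (mdx arrays left, control arrays right in each bar). The dashed line marks the 3 arrays needed for testing; 6 bars reach 36 and 11 probe sets have none.

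At 7 days Hoxa5 was higher and Hoxc9 lower in mdx diaphragm than in control diaphragm, and they were the only Hox probe sets called. Hoxa5 (103086_at) had signals of 2836, 2313 and 1945 on the mdx arrays, against 1289.7, 1094 and 1425 on the control arrays. Every mdx array lay above every control array. The difference was 0.87 ± 0.15 (SE, n = 3 arrays each; limma, adjusted p = 0.00257).

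Hoxc9 (92891_f_at) had signals of 182, 69.8 and 99.3 on the mdx arrays, against 523, 566 and 447 on the control arrays. The groups did not overlap here either, and the 3 control arrays lay above the mark while the 3 mdx arrays lay below it. The difference was -1.93 ± 0.36 (SE, n = 3 arrays each; limma, adjusted p = 0.00508). These are 2 of 27 Hox probe sets tested, beside 0.463% of all 9291 probe sets tested at this age, of which 0.0538% were called higher and 0.409% lower. At an unadjusted p under 0.05 there were 4 Hox probe sets (14.8%, against 10.7% of all probe sets), the other ones being Hoxb8 (96418_r_at, 0.58, adjusted p = 0.46) and Hoxc8 (0.93, adjusted p = 0.438).

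Hoxa5 and Hoxc9 no longer stood alone when the 13 low probe sets were kept in. With no filter, 4 of 40 Hox probe sets were called at 7 days, beside 0.386% of all 12422 probe sets (0.0322% higher and 0.354% lower), and the additional ones were Hoxa10 and Hoxa11, neighbours in the A cluster. Hoxa10 (92970_at) had signals of 15, 21.1 and 23.9 on mdx arrays, against 269, 211 and 155 on control arrays. Hoxa11 (104021_at) had 60.1, 33.5 and 31.6 on mdx arrays, against 267, 429 and 292 on control arrays. For each gene the 3 control arrays lay above the 3 mdx arrays.

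All but 1 of these 12 signals of Hoxa10 and Hoxa11 lay below the mark. Hoxa10 differed by -2.20 ± 0.44 and Hoxa11 by -2.29 ± 0.46 (SE, n = 3 arrays each; limma with no filter, adjusted p = 0.0138 for each). In this fit the 3 Hox probe sets called lower, Hoxa10, Hoxa11 and Hoxc9, were all of paralog groups 9 to 11, and the 1 called higher, Hoxa5, was of group 5. In this fit Hoxa5 and Hoxc9 stayed called with any single 7-day array left out. Hoxa10 lost its call without the first control array (adjusted p = 0.105), the second control array (0.0504) or the first mdx array (0.0781), and Hoxa11 without the second control array (0.0837). With no filter and only the 7-day arrays in the fit, Hoxa5, Hoxc9, Hoxa10 and Hoxa11 all lost their calls. Their differences stayed the same, with limma adjusted p of 0.359, 0.359, 0.253 and 0.274 in that order.

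The other posterior genes did not share a direction at 7 days. Hoxd9, next to the mark, had 154, 112 and 139.7 on mdx arrays, against 346, 179.6 and 169.5 on control arrays, with no overlap but no call. Hoxa9, which sits beside Hoxa10 in the cluster, had 325, 168 and 202 on mdx arrays, against 259, 343 and 196 on control arrays, and the groups overlapped. Hoxa13, Hoxd10 and the tested Hoxa11os probe set overlapped too. Across all 40 probe sets, the 3 mdx arrays lay wholly above the 3 control arrays for Hoxa2, Hoxa5, Hoxb3, Hoxb9, Hoxc6 and Hoxc8, and wholly below for Hoxa10, Hoxa11, Hoxc9 and Hoxd9. That is 25% of the Hox probe sets, beside 14.7% of all probe sets.

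Apart from the called members, 7-day differences did not pass the test. The median difference of the 27 tested Hox probe sets was 0.47, against 0.04 for all probe sets tested. Of the 27, 20 were above 0, beside 54.6% of all probe sets tested. Hoxc6, for example, had 589, 582 and 598 on mdx arrays, against 368, 498 and 452 on control arrays (0.41, adjusted p = 0.578).

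**Figure D2:**
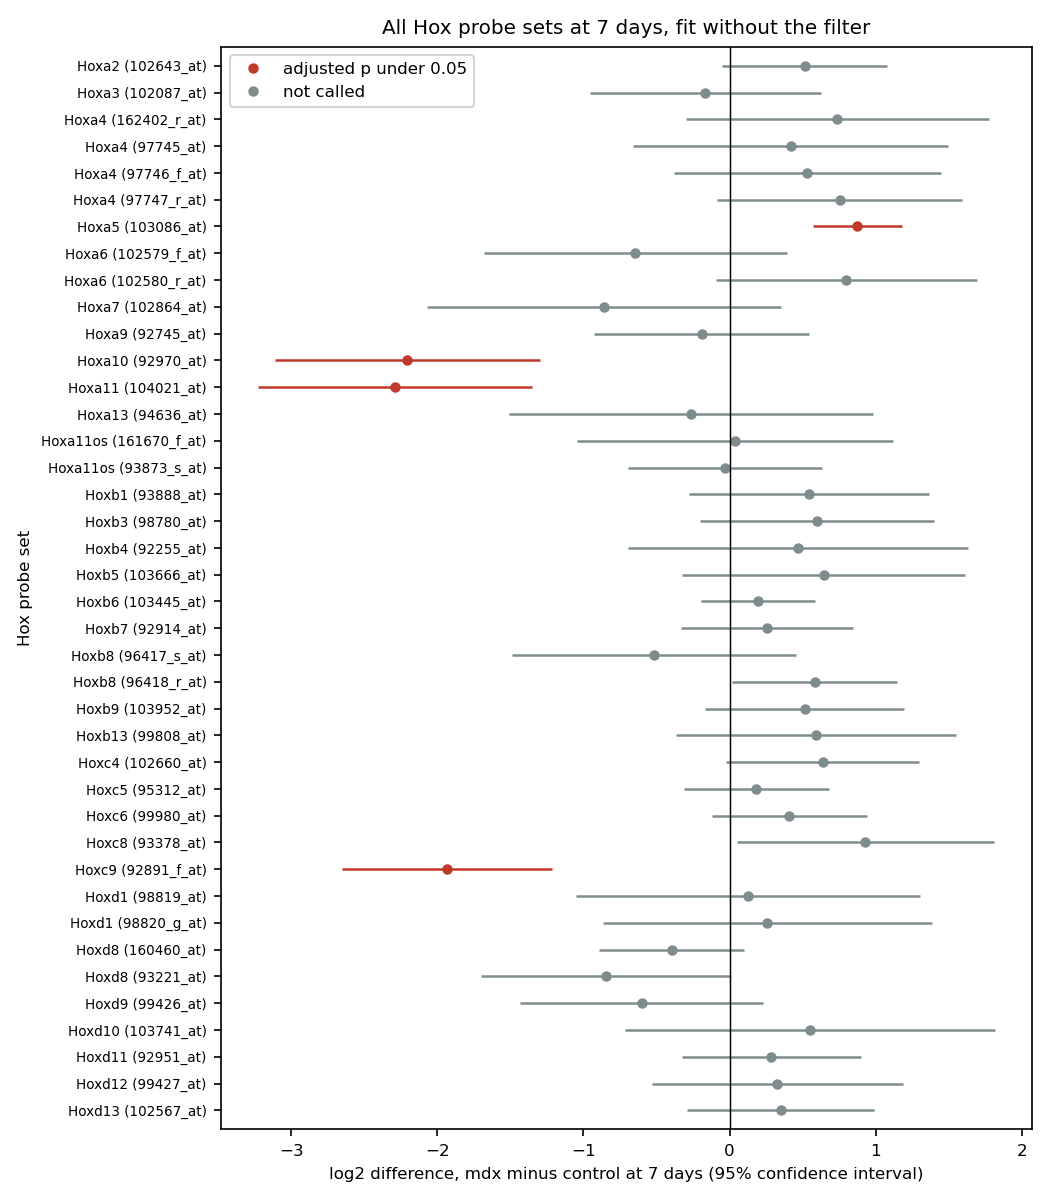
Log2 difference between mdx and control diaphragm at 7 days for each of the 40 Hox probe sets, with its 95% confidence interval, from the fit without the filter. Hoxa5 lies to the right of 0 and Hoxa10, Hoxa11 and Hoxc9 to the left, in red; the other 36 probe sets, in grey, were not called.

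The 7-day differences of Hoxa5 and Hoxc9 were themselves different from those at older ages. At 14 days Hoxa5 had 2752, 3162 and 2379 on mdx arrays, against 2539, 3067 and 2486 on control arrays, and the groups overlapped. Its means were 2056 ± 295 in mdx and 1889 ± 304 in control diaphragm at 23 days, 1392 ± 154 in mdx and 1483 ± 92.4 in control at 28 days, 1717 ± 168 in mdx and 1739 ± 29.3 in control at 56 days, and 1499.9 ± 90.4 in mdx and 1568 ± 132 in control at 112 days (SD, n = 3 each). From 14 days on, its difference stayed between -0.09 and 0.12. The 7-day difference minus the mean of the other 5 ages was 0.88 ± 0.16 (SE; limma, adjusted p = 0.000858).

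Hoxc9 had means of 185 ± 53.5 in mdx and 195 ± 19.96 in control diaphragm at 14 days, 144 ± 17.4 in mdx and 122 ± 69.4 in control at 23 days, and 144 ± 17 in mdx and 141 ± 25.6 in control at 28 days (SD, n = 3 each). At 56 days it had 410.0, 306 and 251 on mdx arrays, against 214, 120.1 and 206 on control arrays, the opposite order to 7 days, without a call (0.75, adjusted p = 0.144). At 112 days it had 330.1, 418 and 493 on mdx arrays, against 412, 393 and 163 on control arrays, and the groups overlapped. Its 7-day difference minus the mean of the other 5 ages was -2.21 ± 0.39 (SE; limma, adjusted p = 0.000439).

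These were the 2 of 27 Hox probe sets called in that comparison, where 5.04% of all probe sets were called. The F test of whether the genotype difference depends on age called the same 2 probe sets, Hoxa5 (adjusted p = 0.0129) and Hoxc9 (adjusted p = 0.0058), beside 8.93% of all. Hoxa5 lost its F test call without the albumin-rich arrays (adjusted p = 0.106). With no filter, Hoxa10 (-2.49 ± 0.49, adjusted p = 0.00187) and Hoxa11 (-2.32 ± 0.50, adjusted p = 0.00555) were called for the 7-day difference minus the other ages, beside 3.52% of all probe sets. The F test with no filter called them as well, beside 6.17% of all probe sets. At 14 days the order of the Hoxa10 groups was the opposite one, with 81.2, 108.6 and 62.5 on mdx arrays, against 35.9, 53.9 and 25.4 on control arrays, all far below the mark and without a call.

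**Figure D3:**
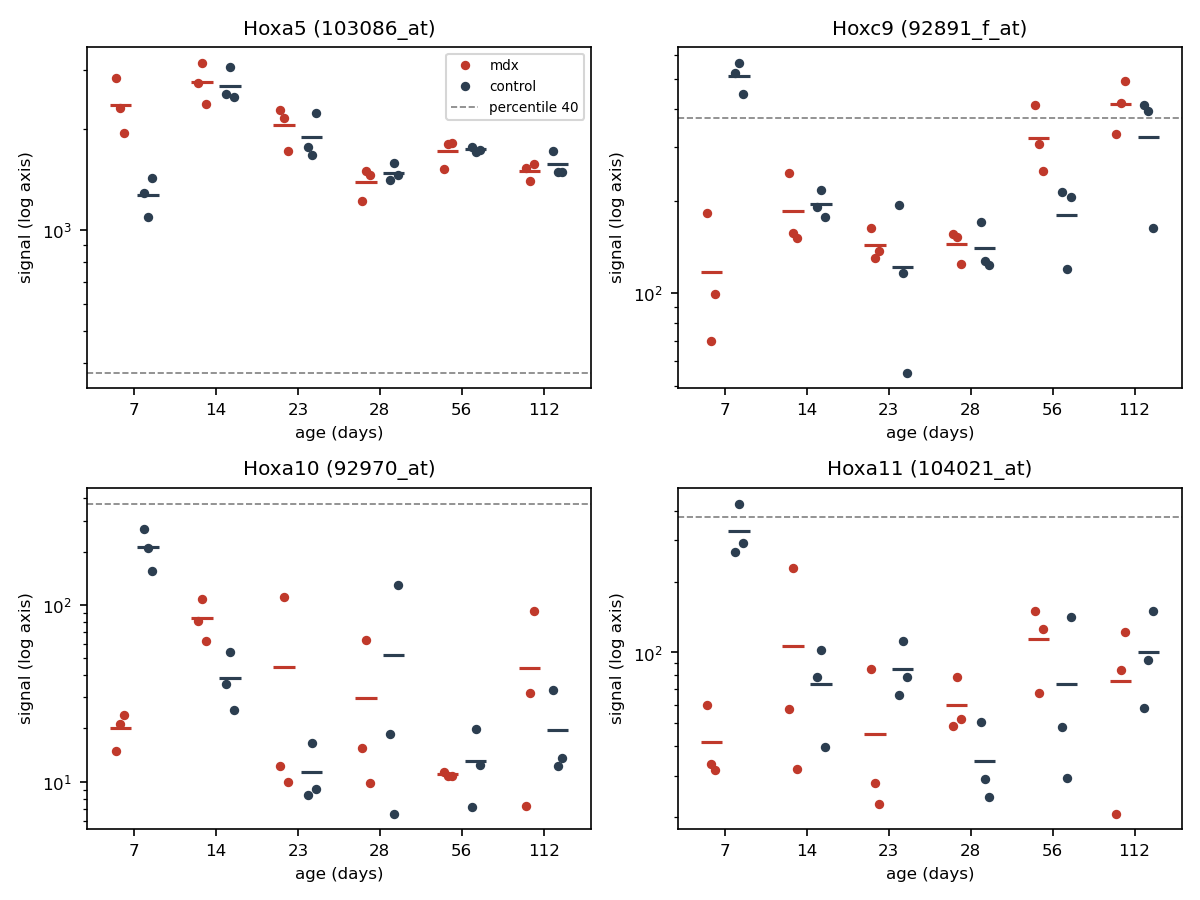
Signal of Hoxa5, Hoxc9, Hoxa10 and Hoxa11 on every array by age in days, on a log axis, mdx (red) left of control (dark); bars are means of 3 arrays and the dashed line is percentile 40. At 7 days mdx lies above control for Hoxa5 and below it for the other genes.

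For Hoxa10, Hoxa11 and Hoxc9 the control arrays at 7 days held most of the high values. For Hoxa10 they ran from 155 to 269, while the highest of the other 33 arrays of both genotypes was 130.1. For Hoxa11 they ran from 267 to 429, and the highest other array was 229. For Hoxc9 they ran from 447 to 566, and 1 of the other 33 arrays, an mdx array at 112 days with 493, reached into that range. The same held for Hoxd8 (93221_at), where they ran from 1068 to 2363. Of the other 33 arrays, 2 lay above the lowest of them, the highest at 1093. For Hoxa5 the 7-day control arrays were instead among the low ones, with all other 33 arrays above the lowest of them and 3 below the highest. Other posterior genes were not highest there: Hoxb13 ran from 116 to 284 on these arrays and reached 679 elsewhere, Hoxa13 from 63.7 to 204 and reached 914, and Hoxd10 from 249 to 416 and reached 2004.

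A comparison of the 7-day controls with controls at the other 5 ages was added after these values were seen. It called 9 of 27 Hox probe sets, beside 31% of all probe sets, so the share is near the background. Called higher at 7 days were Hoxc9 (1.39), Hoxa7 (1.31) and both Hoxd8 probe sets (0.83 for 160460_at and 1.60 for 93221_at). Called lower were Hoxa5 (-0.52), Hoxa6 (102580_r_at, -1.18), Hoxb6 (-0.46), Hoxc5 (-0.48) and Hoxc8 (-0.87). On these arrays Hoxc5 had 525, 482 and 421, and Hoxd8 (160460_at) had 1598, 2298 and 1150.0. With no filter 9 of 40 Hox probe sets were called (22.5%), beside 22.7% of all probe sets. Hoxa10 (2.14 ± 0.34, adjusted p = 1.94e-05) and Hoxa11 (1.84 ± 0.36, adjusted p = 0.000227) were then called higher. Hoxc5 (adjusted p = 0.0645) and Hoxc8 (adjusted p = 0.0584) lost their calls in that fit. Hoxa7 had signals of 659, 665 and 179 on the 7-day control arrays, and its call was lost without the first (adjusted p = 0.2) or the second array (adjusted p = 0.176). Hoxc5 lost its call without the first (adjusted p = 0.0836), the second (0.11) or the third of these arrays (0.225). Hoxc8 lost it without the first (0.315) or the third (0.17), and Hoxb6 likewise (0.143 and 0.108). Hoxa6 lost it without the third (0.339). With the ratio of the Gapdh control signal, 3′ end over 5′ end, as a covariate, limma no longer called Hoxa6 (adjusted p = 0.203), Hoxb6 (0.115), Hoxc5 (0.101) and Hoxc8 (0.125). Without the albumin-rich arrays the same genes lost their calls (0.381, 0.0602, 0.278 and 0.228 in that order). With quantile normalization Hoxc5 (0.085) and Hoxc8 (0.0574) did.

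The same comparison in mdx, also added after the values were seen, called Hoxa5 (0.36, adjusted p = 0.04) and Hoxc9 (-0.83, adjusted p = 0.0475), beside 11.8% of all probe sets. Each was lost when 1 of several mdx arrays was left out and when no filter was used, where 0 of 40 Hox probe sets were called, 6 had an unadjusted p under 0.05, and 8.51% of all probe sets were called. Hoxa5 also lost this call in limma with array weights, which count noisier arrays for less (0.24, adjusted p = 0.179). Without the albumin-rich arrays it was lost as well (0.19, adjusted p = 0.396). Hoxa10 (-0.34, adjusted p = 0.676) and Hoxa11 (-0.47, adjusted p = 0.543) were not called in mdx with no filter. Comparisons at 7 days share their arrays with these and with one another, and none is a second source for another.

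Several other measures also separated the genotypes at 7 days, and their part in the Hox results was not tested except as stated. The Gapdh control signal, 3′ end over 5′ end, was 0.32 to 0.83 on mdx arrays and 0.0357 to 0.147 on control arrays. It was below 1 on all 36 arrays, and what it says about the state of the RNA is not settled. With that ratio as a covariate Hoxc9 lost its call (-2.12, adjusted p = 0.0629) and Hoxa5 kept it. In the fit with no filter and the covariate none of the 4 genes was called, with differences of 0.96 for Hoxa5 (adjusted p = 0.068), -2.12 for Hoxc9 (0.0701), -2.27 for Hoxa10 (0.195) and -1.95 for Hoxa11 (0.399). Without the 9 arrays whose albumin signal exceeded 10000, of which 1 was an mdx and 1 a control array at 7 days, Hoxa5 lost its call (0.82, adjusted p = 0.0626). With no filter and without these arrays Hoxa5 (adjusted p = 0.0731), Hoxa10 (-2.31, adjusted p = 0.271) and Hoxa11 (-2.52, adjusted p = 0.0978) lost their calls, and Hoxc9 kept it (-2.32, adjusted p = 0.028).

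The 7 nerve and Schwann cell markers on the array summed to 14364 to 17993 in mdx and 23679 to 27916 in control diaphragm at 7 days, with Pmp22 (-0.71, adjusted p = 0.0133) and 1 Mbp probe set (-1.18, adjusted p = 0.0245) called lower. The other Mbp probe set was not called and its groups overlapped, with 1131, 679 and 279 on mdx arrays, against 426, 314 and 430 on control arrays (0.60, adjusted p = 0.46). Fibroblast markers summed to 151050.2 to 197565 in mdx and 131176 to 150982 in control diaphragm, with 0 of 8 called by limma, and the 6 mesothelial markers to 6179 to 7217 in mdx and 4608 to 5364 in control diaphragm, with 0 called. The skin and hair markers summed to 8483 to 12879 in mdx and 7174 to 8914 in control diaphragm, which overlap, with 1 called higher and 1 lower. The lower one was Krtap8-1 (-2.50, adjusted p = 0.0396), with 217, 27.3 and 57.9 on mdx arrays, against 1037, 251 and 763 on control arrays. Sums of liver, cartilage, lung, adipocyte and muscle markers overlapped between the genotypes at this age too. In RNA from whole tissue, fewer cells of a type and less RNA per cell cannot be told apart.

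At 14, 23, 28 and 112 days 0 of 27 Hox probe sets were called by limma, beside 0.194%, 3.49%, 2.96% and 12.2% of all probe sets. At an unadjusted p under 0.05 there were 2, 4, 3 and 0, that is 7.41%, 14.8%, 11.1% and 0%, against 6.55%, 14.1%, 12.7% and 25.4% of all probe sets. The nearest to a call was Hoxa4 (97745_at) at 23 days, with 235, 138 and 75.2 on mdx arrays, against 489.6, 559.8 and 568 on control arrays (-1.75, adjusted p = 0.0635). The groups did not overlap, but the Hoxa4 probe set 97747_r_at was not called at any age between genotypes. With array weights, which count noisier arrays for less, Hoxa4 (97745_at), Hoxb1, Hoxb13 and Hoxc5 were called at 23 days. Hoxc5 then had 500.0, 468 and 595 on mdx arrays, against 976, 746 and 800.5 on control arrays.

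At 56 days the anterior gene Hoxa3 and the middle gene Hoxb6 were higher in mdx diaphragm. Hoxa3, which acts in the pharyngeal arches, had 571.5, 279.8 and 280.4 on mdx arrays, against 68.7, 102.5 and 146 on control arrays (1.54 ± 0.39, SE; limma, adjusted p = 0.00582). Hoxb6, known from trunk mesoderm, had 1598, 1317 and 1723 on mdx arrays, against 874, 867.5 and 1329 on control arrays (0.60 ± 0.19, SE; limma, adjusted p = 0.0288). The Hoxa3 groups did not overlap, while the highest Hoxb6 control array lay above the lowest mdx array. At 28 days the order of the Hoxb6 groups was the opposite one, without overlap and without a call (-0.46, limma, adjusted p = 0.264). It then had 912, 962.5 and 795.5 on mdx arrays, against 1561, 1040.5 and 1155 on control arrays.

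These 2 of 27 stand beside 16.7% of all probe sets called at this age. With only the 6 arrays of this age in the fit, both Hoxa3 (adjusted p = 0.0518) and Hoxb6 (0.0974) lost their calls, and Hoxb8 and Hoxd10 were called instead. Hoxa3 lost its call without the first mdx array (1.22, adjusted p = 0.0591), which also held its highest value. Hoxb6 lost its call without mdx array 1 or 3 or control array 1 or 2, with adjusted p between 0.0902 and 0.136. The Hoxb6 call was also lost with quantile normalization (0.42, adjusted p = 0.12) and without the albumin-rich arrays (0.50, adjusted p = 0.136). Groups did not overlap for 32.5% of Hox probe sets, beside 32.8% of all probe sets. The median of the 27 was 0.38 and that of all probe sets 0.15, with 22 of the 27 above 0, beside 61.6% of all probe sets. Other measures moved at this age too, and their part was not tested. Fibroblast markers summed to 112512 to 167268 in mdx and 91598 to 96491 in control diaphragm (4 of 8 called higher), mesothelial markers to 3618 to 4463 in mdx and 6899 to 7785 in control diaphragm (3 of 6 lower), and adipocyte markers to 6388 to 8847 in mdx and 11984 to 15986 in control diaphragm (2 of 5 lower). Array medians were 669.9 to 723 in mdx and 552 to 606 in control.

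Over the mean of the 6 ages Hoxa3 was the 1 Hox probe set called (0.53 ± 0.16, SE; limma, adjusted p = 0.0155), beside 17.8% of all probe sets. At 14 days, too, its 3 mdx arrays (476, 442 and 541) lay above its 3 control arrays (243, 219 and 158), without a call (1.13, adjusted p = 0.421). At the other ages its groups overlapped, apart from 56 days. Hoxb1 came next, with a mean difference of 0.44 and an adjusted p of 0.0583.

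**Figure D4:**
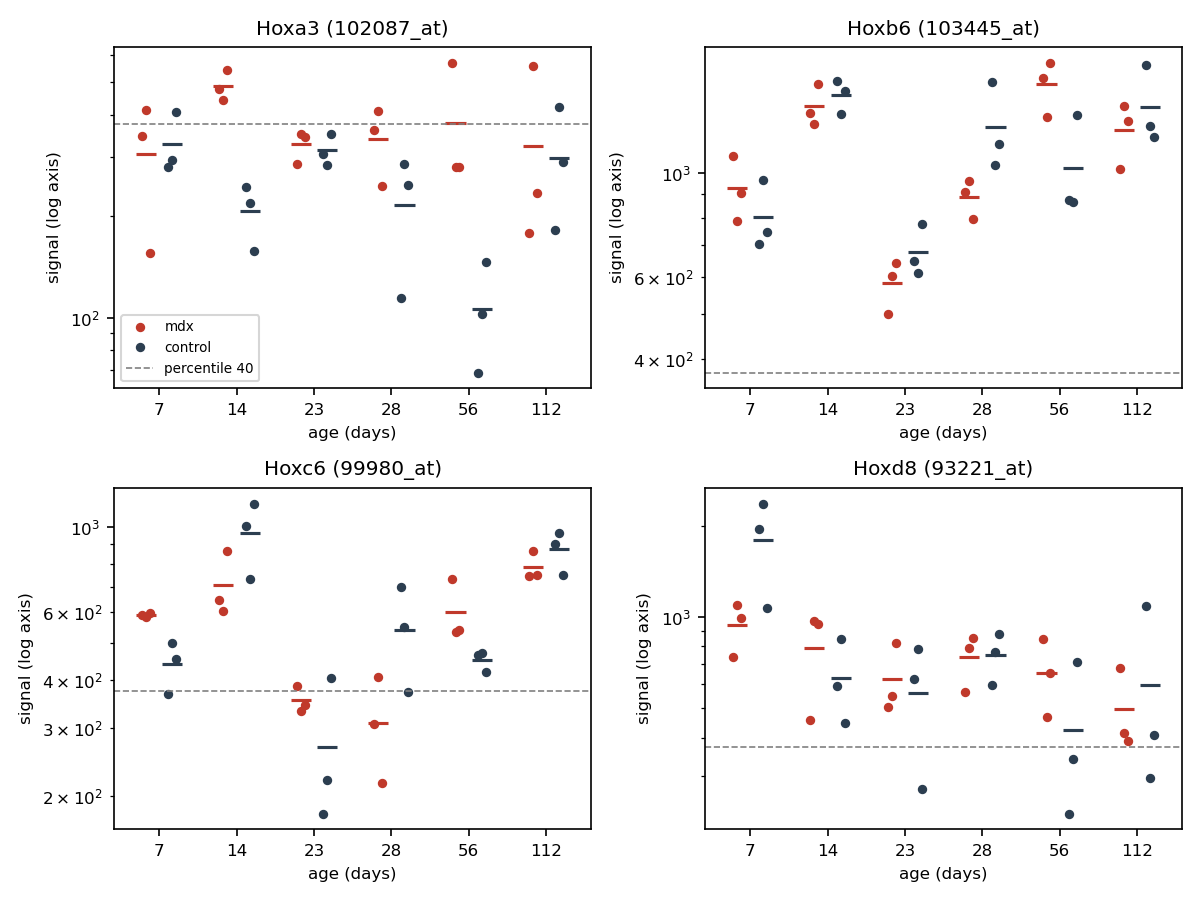
Signal of Hoxa3, Hoxb6, Hoxc6 and Hoxd8 (93221_at) on every array by age in days, on a log axis, mdx (red) left of control (dark); bars are means of 3 arrays and the dashed line is percentile 40. Hoxa3 at 56 days is higher on all mdx than on all control arrays, and Hoxd8 is high on the 7-day control arrays.

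Each genotype at 112 days was also compared with its own 7-day group. In mdx diaphragm Hoxa5 was lower at 112 days (-0.63 ± 0.15, adjusted p = 0.00281) and Hoxc9 higher (1.63 ± 0.36, adjusted p = 0.00128), 2 of 27 beside 17.4% of all probe sets. Without the albumin-rich arrays Hoxa5 lost this call (-0.44, adjusted p = 0.0786). Its Hoxa5 signals were 1527, 1399 and 1574 at 112 days. In control diaphragm 7 of 27 were called, beside 41.7% of all probe sets, and neither Hoxa5 (0.30, adjusted p = 0.1) nor Hoxc9 (-0.70, adjusted p = 0.111) was among them. Whether these changes differ between the genotypes was not tested as such. In controls other measures moved with age too, and their part was tested only through the Gapdh ratio and the albumin-rich arrays, as given with the effects of the processing. The Gapdh ratio was 0.518 to 0.93 at 112 days and 0.0357 to 0.147 at 7 days, nerve markers summed to 5807 to 7094 at 112 days and 23679 to 27916 at 7 days, and fibroblast markers to 63120.1 to 77402 at 112 days and 131176 to 150982 at 7 days.

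Higher at 112 days in controls were Hoxa4 (97747_r_at, 1.07), Hoxa6 (102580_r_at, 1.38), Hoxb6 (0.75), Hoxb13 (1.43), Hoxc6 (0.94) and Hoxc8 (1.11). Hoxc6 had 905, 965 and 752 on control arrays at 112 days, against 368, 498 and 452 at 7 days, with no overlap. Hoxb6 had 1697.5, 1262 and 1194 on control arrays at 112 days, against 706, 967.5 and 747 at 7 days. Lower was Hoxd8 (93221_at, -1.67 ± 0.42), with 1089, 295 and 408 on control arrays at 112 days, against 1941, 2363 and 1068 at 7 days, which overlap. The other Hoxd8 probe set (160460_at) was not called, with -0.38. Without the albumin-rich arrays, calls were lost for Hoxc6 (limma, adjusted p = 0.0767), Hoxd8 (93221_at, 0.195), Hoxa4 (0.33), Hoxa6 (0.162), Hoxb13 (0.176) and Hoxc8 (0.503). With the Gapdh ratio as a covariate, they were lost for Hoxc6 (0.0869), Hoxd8 (93221_at, 0.136), Hoxa4 (0.674), Hoxa6 (0.268) and Hoxc8 (0.11).

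Hoxa4 had 4262, 4867 and 3971 on control arrays at 112 days, against 1959, 2432 and 1839.9 at 7 days, and lost its call when any of 5 of these 6 arrays was left out. Hoxa6 had 1049, 751 and 646 at 112 days, against 465, 503 and 89.9 at 7 days in controls, and without the array of 89.9 the difference was 0.69 (adjusted p = 0.192). Hoxb13, known from the prostate and tail end, had 566, 679 and 347 at 112 days, against 116, 284 and 146 at 7 days in controls. Hoxc8 had 308, 745 and 306 at 112 days, against 108, 307 and 156 at 7 days in controls. Hoxb13 and Hoxc8 each lost their call without any of 3 single arrays. With no filter Hoxa10 (-2.24) and Hoxa11 (-1.48) were called lower at 112 days in controls. In that fit 9 of 40 Hox probe sets were called (22.5%), beside 32.3% of all probe sets.

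**Figure D5:**
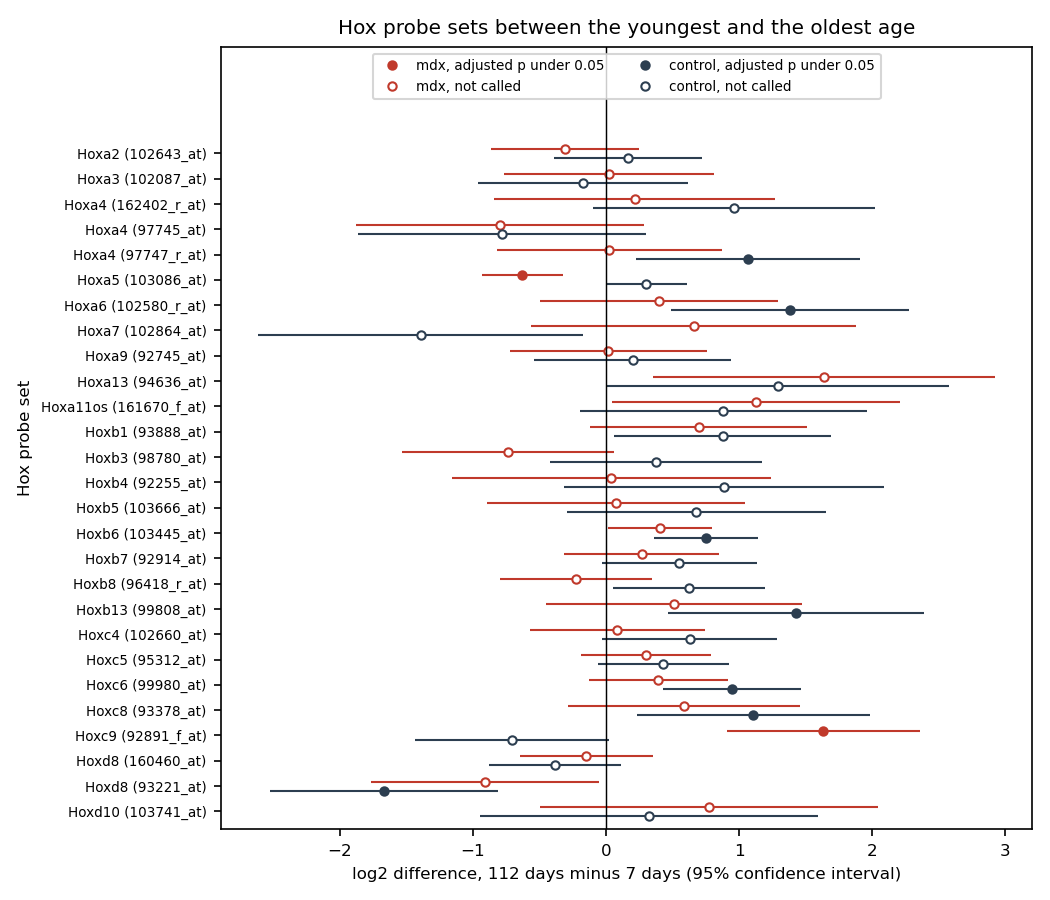
Log2 difference between 112 and 7 days for the 27 tested Hox probe sets, with its 95% confidence interval, in mdx (red, upper) and control diaphragm (dark, lower); filled points were called. In mdx 2 probe sets were called and in controls 7.

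Genes that work with Hox factors or set their clusters' activity were counted from lists. At 7 days limma called 0 of 4 tested Hox cofactors (Pbx, Meis and Pknox genes), 0 of 20 chromatin regulators of Hox clusters, 0 of 10 inducers of Hox transcription (retinoid genes among them) and 0 of 26 other regional transcription factors. These zeros stand beside 0.463% of all probe sets. At an unadjusted p under 0.05 there were 1, 1, 3 and 4, against 10.7% of all probe sets. At 14, 23 and 28 days limma again called none in these lists, beside 0.194%, 3.49% and 2.96% of all probe sets, with 0 to 3 per list at an unadjusted p under 0.05. For the 7-day difference minus the other ages, limma called the inducer Aldh1a3 (-2.18, adjusted p = 0.00403), beside 5.04% of all probe sets. The F test of age dependence called the inducers Aldh1a1, Aldh1a3 and Rxrg and the chromatin regulators Jarid2 and Bmi1, beside 8.93% of all.

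At 56 days 2 of 20 chromatin regulators, 4 of 10 inducers and 4 of 26 other regional factors were called, beside 16.7% of all probe sets. The chromatin regulator Bmi1, a Polycomb protein, was lower (-0.73) and Jarid2, a partner of Polycomb, was higher (0.90) in mdx. Of the inducers, the retinoic acid enzyme Aldh1a3 was higher (1.86), while Aldh1a1 (-0.98), the retinol carrier Rbp4 (-3.09) and the retinoid receptor Rxrg (-1.33) were lower. Of the other regional factors Meox1 (0.77), Tcf4 (0.83) and Msx1 (0.87) were higher and Tbx15 (-0.80) was lower. At 112 days, when 12.2% of all probe sets were called, 1 of 20 chromatin regulators, 2 of 10 inducers and 1 of 26 other regional factors were called. Phc2 (1.19), Aldh1a3 (1.29) and Meox1 (0.88) were higher and Aldh1a1 (-0.92) lower in mdx. No Hox cofactor was called between genotypes at any age by limma.

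The whole set of arrays was checked with muscle markers and with Dmd. All 11 muscle markers were tested, and 9 of them passed the mark on all 36 arrays, Acta1 on 35 and Myh2 on 3. The Dmd probe set was lower in mdx over the mean of the 6 ages (-1.01 ± 0.12, adjusted p = 2.22e-07), and at 7 days had 407, 712 and 440 on mdx arrays, against 648, 752 and 757 on control arrays, which overlap. Array medians lay between 451 and 723.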

How the data were processed

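Per the labels, the array maker's standard protocol was used for all 36 arrays. Software: not given in the sources used here. Deposited values are a linear intensity for each probe set, already scaled by the authors to a common trimmed mean, as found from the values. No detection calls were used. From these intensities log2(value + 32) was computed, since the deposited files are not on a log scale. Probe sets were kept where 3 arrays exceeded percentile 40 (374.5). limma 3.58.1 in R 4.3.3 fitted 12 group means to all 36 arrays with trended moderated variances (24 residual degrees of freedom). P-values were adjusted by Benjamini-Hochberg over all probe sets tested, and an adjusted p under 0.05 counts as a call. The number of arrays limits precision. The procedure was tested on simulated data.

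Members and gene lists were chosen with earlier results of these data known. Every Hox probe set is accounted for, with values for those called and for Hoxa5 and Hoxc9; on lists, the probe set of highest mean signal stands for a gene, and up to 4 called genes are named. The 66 array controls were left out. All 40 members matched a RefSeq gene by symbol. Same-numbered arrays of mdx and control did not deviate together (1 of 18 pairs over 0.1, from -0.225 to 0.147), so arrays were not paired. Alternatives covered filter, pseudocount, normalization, array weights, replicate number, the Gapdh ratio, albumin-rich arrays, the arrays in the fit, and each array left out.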

Additional observations from a re-analysis of the deposited data

Results flagged for a closer look

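The genotype difference of Hoxa5 was not the same at all ages. Its log2 difference, mdx minus control, at 7 days minus the mean of the other 5 ages was 0.877, and the F test of dependence on age gave an adjusted p of 0.0129 (limma). The F test lost this call without the albumin-rich arrays (adjusted p = 0.106). It also did so without the first 7-day mdx array (0.063) or the second 7-day control array (0.0634). All 3 mdx arrays lay above all 3 control arrays at 7 days.

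The genotype difference of Hoxc9 differed between ages too. The same measure was -2.21, and the F test gave an adjusted p of 0.0058 (limma). All 3 mdx arrays lay below all 3 control arrays at 7 days and above them at 56 days.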

How the results depend on the processing

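The number of Hox probe sets called at 7 days was 2, and became 4 with no filter, 1 with percentile 60, the Gapdh ratio or no albumin-rich arrays, and 0 with only the 6 arrays of that age, where Hoxa5 (adjusted p = 0.385) and Hoxc9 (0.345) kept their differences; it was 2 with any 7-day array left out. Percentile 60 left 12 Hox probe sets to test, which removed Hoxc9. At 23 days the count of 0 became 4 with array weights, and 1 without albumin-rich arrays or with that age alone. At 56 days the count of 2 became 1 with percentile 60, quantile normalization or no albumin-rich arrays, and ran from 0 to 3 with arrays of that age left out; with that age alone it was 2, but for Hoxb8 and Hoxd10. For the mean of the ages the count of 1 became 0 with percentile 60, quantile normalization or no albumin-rich arrays and 2 with the Gapdh ratio (1 to 3 with arrays left out). For the F test the count of 2 became 4 with no filter, 1 with percentile 60 or no albumin-rich arrays and 5 with array weights (1 to 3 with arrays left out). For 7 days minus the other ages it became 4 with no filter and 1 with percentile 60 (2 to 3 with arrays left out). For mdx at 112 minus 7 days it became 1 with percentile 60 (2 to 3 with arrays left out). For controls at 112 minus 7 days the count of 7 became 11 with array weights, 4 with the Gapdh ratio and 1 without albumin-rich arrays (4 to 10 with arrays left out). For the added comparisons, mdx at 7 days against other ages went to 0 with no filter and 1 with percentile 60 (0 to 2 with arrays left out), and controls to 14 with array weights and 5 without albumin-rich arrays (5 to 9 with arrays left out). With the replicate number as a block, 1 Hox probe set was called in mdx at 7 days against other ages, and in controls Hoxc5 and Hoxc8 lost their calls; no other Hox call listed here changed. Beyond the smaller sets of arrays or probe sets, the cause was not tested. No result reversed. Of dim probe sets such as Hoxa10 and Hoxa11, log2 differences depend on the pseudocount: -2.64 and -2.59 with 16, -1.69 and -1.88 with 64.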
